A study of Homo sapiens with 6 samples.

Results

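The mitochondrial ribosomal protein genes were followed in MDA-MB-231, an established human line of triple-negative breast cancer, after transduction with an inhibitor of miR-138. They are the genes whose annotated symbol starts with MRPL or MRPS followed by a digit. This rule matched 115 array probes, of which 5 were left out (3 of pseudogenes and 2 of antisense transcripts), and the remaining 110 probes measure 76 of the 20046 genes named on the array. Of the 77 protein-coding genes with such symbols in RefSeq, MRPL27 has no probe named here. The study compared 3 arrays of cells transduced with the scrambled control lentivirus and 3 arrays of cells transduced with a lentivirus that expresses antagomiR-138 (antimiR-138 in the labels), to find the transcripts that change when miR-138 is inhibited. All cells were harvested 72 h (day 3) after transduction. Both groups carried the same kind of vector, in which the H1 promoter drives the antagomiR or the scrambled sequence and the CMV promoter drives copGFP and puromycin resistance. The labels do not say whether the replicates are separate transductions, so the p-values measure the spread between these arrays, which may be technical. A single cell line and time point were measured.

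Mitochondrial ribosomes translate the messages of the mitochondrial genome, all of which encode subunits of the respiratory chain and ATP synthase. Their RNAs come from mitochondrial DNA, but every one of their proteins is encoded in the nucleus, made in the cytosol and imported. The small subunit (most proteins with MRPS symbols) binds and decodes the message, and the large subunit (MRPL) forms the peptide bond and holds the exit tunnel. Some of the proteins descend from bacterial ribosomal proteins, and others have no bacterial counterpart and are called mitochondria-specific. A microRNA such as miR-138 recognises messages through its seed, bases 2 to 8, shown in capitals in the RefSeq sequence of miR-138-5p, a mature form of miR-138.
hsa-miR-138-5p: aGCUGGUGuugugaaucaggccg
In GRCh38.p14 it is encoded on the plus strand at chr3:44114234-44114256 (MIR138-1) and again at chr16:56858527-56858549 (MIR138-2). No array detected the probes for either precursor gene, the lowest of their detection p-values being 0.395. The mature miRNA was not measured by these arrays.

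Each array detected 19263 to 20430 of 47322 probes (40.7% to 43.2%, detection p under 0.05), and the arrays correlated at 0.996 or more within a group and at 0.964 or less between groups. All 6 markers of MDA-MB-231 (VIM, CD44, CAV1, EGFR, MSN and FOSL1) were detected on every array, with a summed signal of 123056 to 128800 in the control and 108917 to 111192 in antagomiR-138. Of 9 luminal markers 4 were detected on every array and ESR1, PGR and FOXA1 on none (summed signal 7959 to 8159 and 6636 to 6884). Of the 6 fibroblast markers, 2 were detected on every array and POSTN on none, COL1A2 and LUM (detected on 1 of 3 control arrays) differed by log2 1.88 and 1.39, higher in antagomiR-138, COL1A1 was at least 1.85-fold higher (not above background in the control), and PDGFRB and DCN (detected on 1 of 3 antagomiR-138 arrays) were lower by 1.70 and 0.35. The summed fibroblast signal was 1058 to 1081 on the control arrays and 1450 to 1576 on the antagomiR-138 arrays. The part of these markers in the results was not tested.

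All 76 genes were above background on all 6 arrays. Upon miR-138 knockdown 36 of them rose, 16 fell and 24 did not pass the test (limma, Benjamini-Hochberg adjusted p under 0.05 over 11426 genes). The groups differed across the transcriptome, since 60.1% of all genes tested passed, 30.9% higher and 29.1% lower. Against that background 47.4% of the mitochondrial ribosomal protein genes were higher and 21.1% lower. The control and antagomiR-138 arrays did not overlap for 59 genes (77.6%, against 66.6% of all genes). The log2 fold change was positive for 53 genes and negative for 23, with a median of 0.19 (quartiles -0.09 and 0.33) against 0.02 over all genes. The changes were small. At least 1.5-fold with an adjusted p under 0.05 was reached by 6 genes upwards and 2 downwards, against 11.4% and 13.8% of all genes. Bulk arrays cannot tell fewer cells with a transcript from less of it per cell.

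The shift was seen on each antagomiR-138 array. Taken against the mean of the controls, the median over the 76 genes was -0.01, 0.02 and -0.01 on the control arrays and 0.16, 0.16 and 0.18 on the antagomiR-138 arrays, so the groups did not overlap. The same medians over all genes lay between 0.00 and 0.03. The split between rises and falls depended on scaling: with the arrays centred on their medians without quantile normalization, 41 genes were higher and 6 lower (87.2% of the calls higher, against 69.2%), while of all genes 33.4% were higher and 27.0% lower. The count of falls also rested on the number of arrays. It was 9, 7 and 9 without scrambled control replicate 1, 2 or 3 and 8 and 8 without antagomiR-138 replicate 2 or 3, while the count of rises stayed between 29 and 35 without any 1 array. Of all genes, 26.6% to 27.8% were lower without any 1 array, against 29.1% with all arrays.

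**Figure D1:**
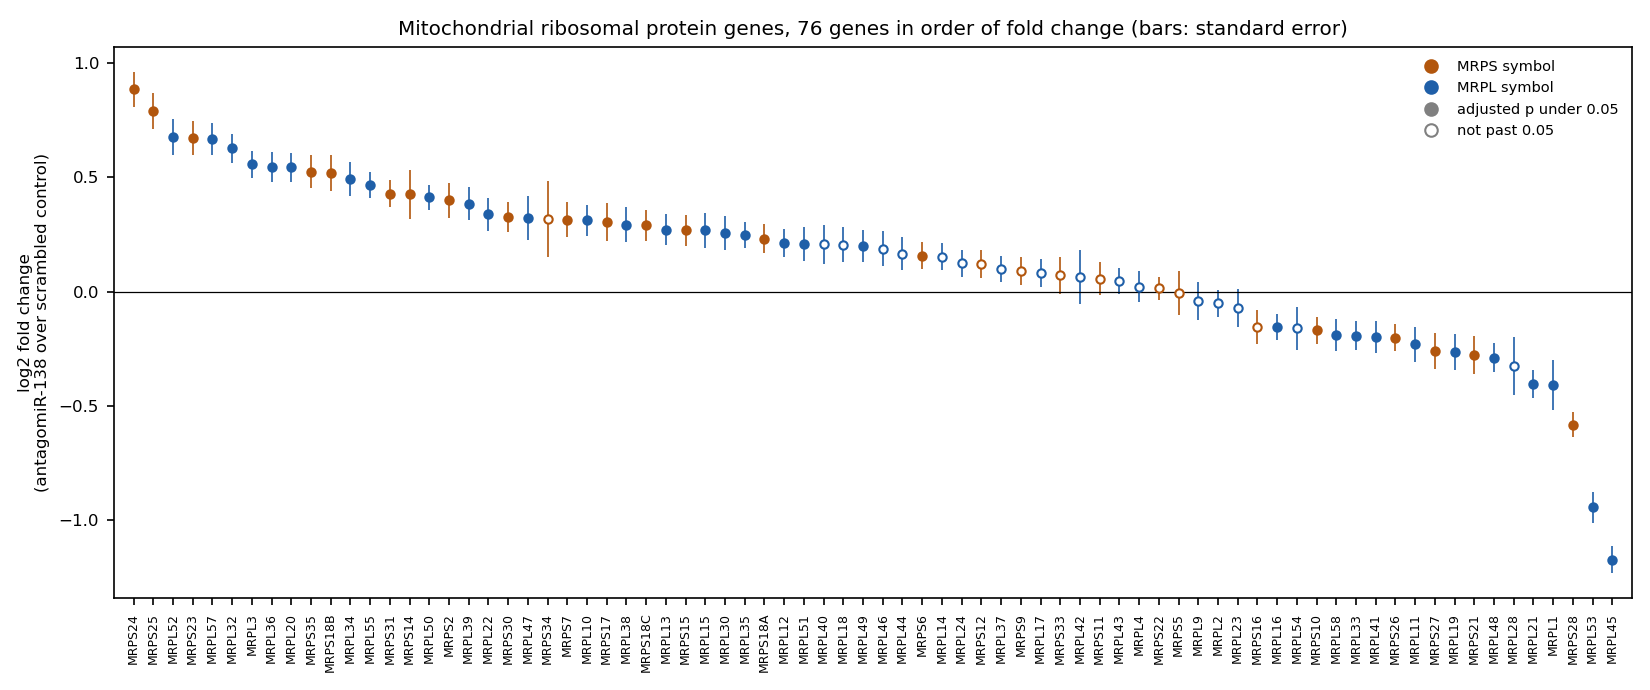
Log2 fold change (antagomiR-138 over scrambled control, y axis) of the 76 mitochondrial ribosomal protein genes (x axis, in order), with bars of 1 standard error, 3 arrays per group. Filled points have an adjusted p under 0.05; the range runs from 0.89 for MRPS24 to -1.17 for MRPL45, and both colours (MRPS and MRPL symbols) are found at both ends.

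The small subunit proteins with a bacterial counterpart include those at its decoding centre. Of 16 genes, 8 rose, 3 fell and 5 did not pass, with a median log2 fold change of 0.14. MRPS24 is the counterpart of bacterial S3, which lines the entry of the message channel, and had the largest rise of all 76 genes. Its log2 signal was 12.23, 12.21 and 12.23 on the control arrays and 13.25, 12.99 and 13.10 on the antagomiR-138 arrays. The antagomiR-138 arrays all lay above the controls, with a log2 fold change of 0.89 (SE 0.08, 1.85-fold, adjusted p = 8.4e-05). MRPS14, MRPS2, MRPS7, MRPS17, MRPS18C, MRPS15 and MRPS6 rose as well, by 0.16 to 0.43. MRPS2 and MRPS7 are counterparts of the bacterial proteins that carry the same numbers. The opposite was seen for MRPS28, assigned to the family of bacterial S1. Its log2 signal was 10.18, 10.13 and 10.08 on the control arrays and 9.52, 9.56 and 9.55 on the antagomiR-138 arrays. The arrays were tightly grouped and did not overlap, with a log2 fold change of -0.58 (SE 0.06, 1.499-fold lower, adjusted p = 0.00014). MRPS21, the counterpart of S21, read 9.64, 9.87 and 9.72 on the control arrays and 9.56, 9.36 and 9.48 on the antagomiR-138 arrays. Its groups did not overlap but the gap was narrow, with a log2 fold change of -0.28 (SE 0.09, 1.21-fold lower, adjusted p = 0.0259). MRPS10 fell by 0.17 on the log2 scale. MRPS12, the counterpart of S12 at the decoding centre, was at 0.12 and MRPS5, MRPS9, MRPS11 and MRPS16 at -0.16 to 0.09, none past the test. Leaving out replicate 2 or 3 of either group ended the call of MRPS21 (log2 fold change -0.21 to -0.29, adjusted p 0.057 to 0.080). Median centring, averaged probes, the replicate block and the methods' t-test after Benjamini-Hochberg ended it as well.

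The mitochondria-specific small subunit proteins lie mostly on the surface of the particle. Of 10 genes, 5 rose, 2 fell and 3 did not pass, and the median log2 fold change was 0.37, the highest of the 4 classes. MRPS25 had the second largest rise. Its log2 signal was 6.93, 6.87 and 6.91 on the control arrays and 7.59, 7.84 and 7.65 on the antagomiR-138 arrays. The groups lay well apart, with a log2 fold change of 0.79 (SE 0.08, 1.73-fold, adjusted p = 0.00016). MRPS23 read 9.43, 9.40 and 9.52 on the control arrays and 10.21, 10.00 and 10.16 on the antagomiR-138 arrays. It too separated the groups fully, with a log2 fold change of 0.67 (SE 0.07, 1.59-fold, adjusted p = 0.00026). MRPS35 read 10.38, 10.27 and 10.24 on the control arrays and 10.81, 10.73 and 10.92 on the antagomiR-138 arrays, without overlap, and had a log2 fold change of 0.52 (SE 0.07, 1.44-fold, adjusted p = 0.00073). MRPS18B, a relative of bacterial S18, and MRPS31 rose by 0.52 and 0.43. MRPS27, which carries the pentatricopeptide repeats typical of organelle RNA-binding proteins, read 11.32, 11.30 and 11.19 on the control arrays and 10.99, 10.89 and 11.14 on the antagomiR-138 arrays. The lowest control and the highest antagomiR-138 array were close, and it had a log2 fold change of -0.26 (SE 0.08, 1.198-fold lower, adjusted p = 0.0255). Leaving out replicate 1 or 2 of either group ended its call (-0.20 to -0.25, adjusted p 0.065 to 0.075), as did averaging its probes, centring on medians and the replicate block (-0.15 to -0.26, adjusted p 0.054 to 0.097). The methods' t-test after Benjamini-Hochberg did not keep the call either. MRPS26 fell by 0.20. MRPS22 and MRPS33 differed by 0.01 and 0.07 and did not pass. MRPS34 was at 0.32 (SE 0.17, adjusted p = 0.138). There antagomiR-138 replicate 1, at 6.89, lay within the control range of 6.85 to 7.10 while the other two arrays were at 7.49 and 7.45.

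**Figure D2:**
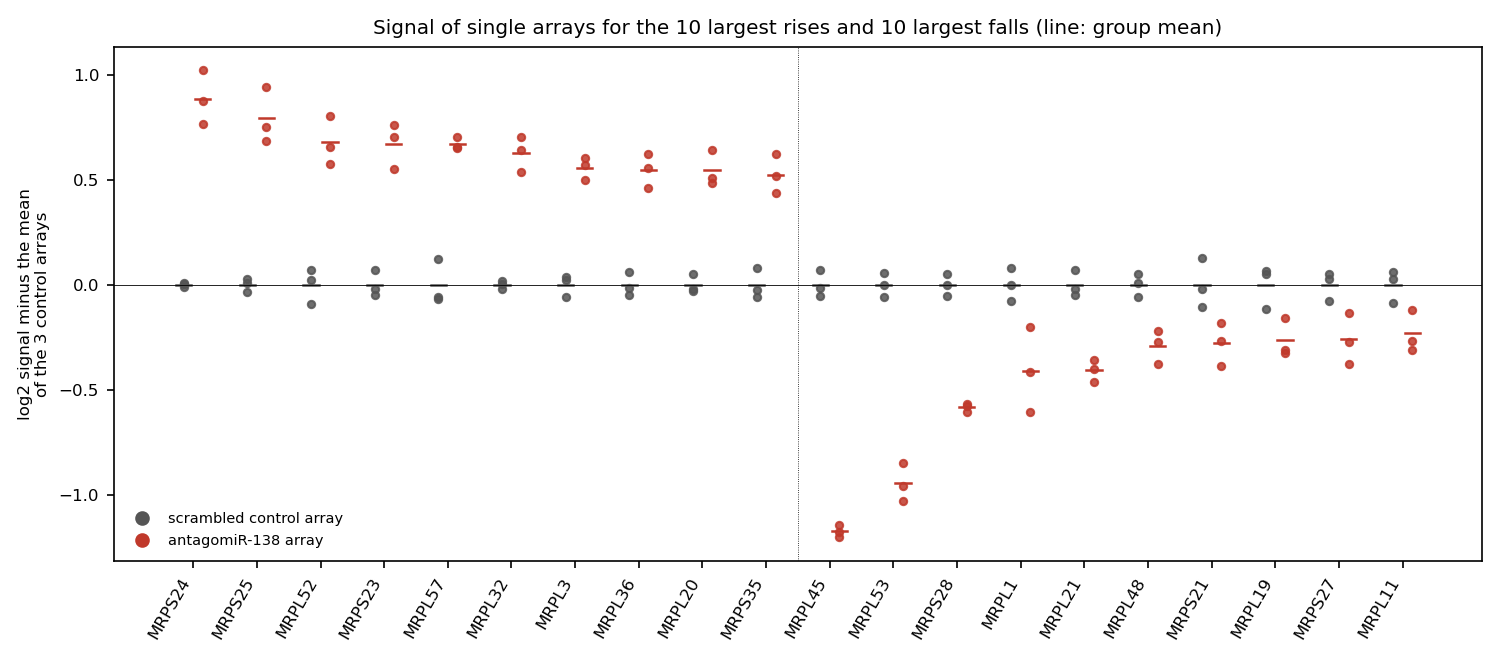
Log2 signal of single arrays minus the mean of the 3 control arrays (y axis) for the 10 largest rises and the 10 largest falls that passed the test with no overlap between groups (x axis). Grey points are scrambled control arrays, red points antagomiR-138 arrays and short lines group means; MRPS24 and MRPL45 lie farthest from their controls, and the falls from MRPL48 to MRPL11 have group means within 0.3 of theirs.

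In the large subunit, 29 measured genes have a bacterial counterpart. Of these 14 rose, 6 fell and 9 did not pass, with a median of 0.21. MRPL32, the counterpart of L32, is cut by the m-AAA protease on import, in mouse and yeast, before it enters the ribosome. Its log2 signal was 11.20, 11.17 and 11.19 on the control arrays and 11.89, 11.73 and 11.83 on the antagomiR-138 arrays. All antagomiR-138 arrays were higher, with a log2 fold change of 0.63 (SE 0.06, 1.54-fold, adjusted p = 0.00017). MRPL3, the counterpart of L3 beside the peptidyl transferase centre, read 12.31, 12.32 and 12.23 on the control arrays and 12.86, 12.89 and 12.79 on the antagomiR-138 arrays. The shift was even across arrays, with a log2 fold change of 0.56 (SE 0.06, 1.47-fold, adjusted p = 0.00022). MRPL36, the counterpart of the small zinc-binding protein L36, read 11.40, 11.32 and 11.29 on the control arrays and 11.95, 11.79 and 11.89 on the antagomiR-138 arrays. It had a log2 fold change of 0.55 (SE 0.07, 1.46-fold, adjusted p = 0.00040). MRPL20, the counterpart of L20, an early assembly protein in bacteria, read 9.88, 9.81 and 9.80 on the control arrays and 10.47, 10.34 and 10.32 on the antagomiR-138 arrays. It had a log2 fold change of 0.54 (SE 0.06, 1.46-fold, adjusted p = 0.00037). The others that rose did so by 0.21 (MRPL12, of the stalk that recruits translation factors) to 0.49 (MRPL34). They were MRPL55, MRPL22, MRPL47, MRPL10, MRPL13, MRPL15, MRPL30 and MRPL35, beside those 2. The call of MRPL30 was lost when its probes were averaged (adjusted p = 0.308), without replicate 1 or 2 of the control and without replicate 1 of antagomiR-138.

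Among those that fell, MRPL21, the counterpart of L21, read 11.61, 11.70 and 11.58 on the control arrays and 11.17, 11.23 and 11.27 on the antagomiR-138 arrays. The groups did not overlap, with a log2 fold change of -0.41 (SE 0.06, 1.33-fold lower, adjusted p = 0.00114). MRPL1, the counterpart of L1 on the mobile stalk by the tRNA exit site, read 10.66, 10.51 and 10.58 on the control arrays and 10.38, 10.17 and 9.98 on the antagomiR-138 arrays. The antagomiR-138 arrays were spread widely but all lay below the controls, with a log2 fold change of -0.41 (SE 0.11, 1.33-fold lower, adjusted p = 0.0144). MRPL19, the counterpart of L19 at the contact with the small subunit, read 10.38, 10.56 and 10.55 on the control arrays and 10.34, 10.19 and 10.17 on the antagomiR-138 arrays. The groups were just apart, with a log2 fold change of -0.26 (SE 0.08, 1.201-fold lower, adjusted p = 0.0230). MRPL11, the counterpart of L11 at the base of the factor-binding stalk, read 11.62, 11.64 and 11.50 on the control arrays and 11.47, 11.32 and 11.28 on the antagomiR-138 arrays. The gap was again small, with a log2 fold change of -0.23 (SE 0.07, 1.17-fold lower, adjusted p = 0.0316). The calls of MRPL19 and MRPL11 each rested on 4 single arrays. Both were also lost with median centring and with the methods' t-test after Benjamini-Hochberg. The replicate block ended that of MRPL19 as well, and averaged probes and no detection filter that of MRPL11. MRPL19 did not pass without replicate 2 or 3 of either group (-0.23 to -0.24, adjusted p 0.070 to 0.073), nor MRPL11 without replicate 1 or 2 of the control or replicate 2 or 3 of antagomiR-138 (-0.19 to -0.22, adjusted p 0.084 to 0.095). MRPL33 and MRPL16 fell by 0.19 and 0.16, calls that were kept in only 9 and 6 of 16 other settings. MRPL2, MRPL4, MRPL9, MRPL14, MRPL17, MRPL18, MRPL23 and MRPL24 were between -0.07 and 0.21 and did not pass. MRPL28 was at -0.33 with an SE of 0.13 (adjusted p = 0.0629), its arrays not overlapping.

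The mitochondria-specific large subunit proteins held both of the strongest falls. Of 21 genes (with MRPS30 and MRPS18A, large subunit proteins despite their symbols), 9 rose, 5 fell and 7 did not pass, with a median of 0.19. MRPL45 sits at the exit of the peptide tunnel, where it ties the ribosome to the inner membrane. Its log2 signal was 11.24, 11.36 and 11.27 on the control arrays and 10.15, 10.11 and 10.09 on the antagomiR-138 arrays. The antagomiR-138 arrays lay close together and far below the controls, with a log2 fold change of -1.17 (SE 0.06, 2.26-fold lower, adjusted p = 1.1e-05), the largest change on the brightest probe of any member. MRPL53, near the factor-binding stalk, read 9.53, 9.58 and 9.47 on the control arrays and 8.68, 8.57 and 8.496 on the antagomiR-138 arrays. It was also fully separated, with a log2 fold change of -0.95 (SE 0.07, 1.93-fold lower, adjusted p = 4.2e-05). MRPL48, of the central protuberance, read 10.12, 10.19 and 10.23 on the control arrays and 9.96, 9.91 and 9.80 on the antagomiR-138 arrays, without overlap, and had a log2 fold change of -0.29 (SE 0.06, 1.22-fold lower, adjusted p = 0.00710). MRPL58, a peptidyl-tRNA hydrolase that became part of the ribosome, and MRPL41 fell by 0.19 and 0.20. On the side of the rises, MRPL52 read 10.04, 10.20 and 10.16 on the control arrays and 10.94, 10.71 and 10.79 on the antagomiR-138 arrays. It had a log2 fold change of 0.68 (SE 0.08, 1.60-fold, adjusted p = 0.00034). MRPL57 (earlier MRP63) read 7.81, 8.005 and 7.83 on the control arrays and 8.53, 8.58 and 8.53 on the antagomiR-138 arrays, with a smaller spread in antagomiR-138 than in the control, and had a log2 fold change of 0.67 (SE 0.07, 1.59-fold, adjusted p = 0.00020). Smaller rises, of 0.20 to 0.41, were found for MRPL49, MRPL51, MRPS18A (like MRPS18B a relative of S18), MRPL38, MRPS30, MRPL39 and MRPL50. MRPL37, MRPL40, MRPL42, MRPL43, MRPL44, MRPL46 and MRPL54 did not pass (-0.16 to 0.21). By symbol alone, 15 of 28 MRPS genes rose and 5 fell (median 0.25), and 21 of 48 MRPL genes rose and 11 fell (median 0.18). A difference between the subunits was not tested.

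For 23 of the genes 2 or more probes entered, so the same gene was read more than once. The probes all rose for 7 genes, all fell for MRPL45, went both ways for MRPL11 and MRPS21, were called only in part for 9 and not at all for 4 (adjusted p over 20051 probes, of which 49.9% passed). The second MRPL45 probe read 9.002, 9.06 and 9.23 on the control arrays and 8.13, 8.10 and 8.31 on the antagomiR-138 arrays, again without overlap, a log2 fold change of -0.92. The second MRPL3 probe gave 0.54 beside 0.56. MRPL35, a counterpart of bacterial L35, rose on 3 probes, by 0.25, 0.59 and 0.75, the smallest on the brightest probe. Elsewhere the brightest probe and a dimmer one differed. The second MRPS21 probe read 6.74, 6.78 and 6.82 on the control arrays and 7.58, 7.38 and 7.32 on the antagomiR-138 arrays, a rise of 0.64 where the brightest fell. MRPL11 had -0.23 on its brightest probe, -0.10 (not past the test) on the next and 0.46 on the dimmest. With the probes of a gene averaged, MRPL11 and MRPS21 were at 0.04 and 0.18, and neither passed (adjusted p = 0.527 and 0.0713). The second MRPS33 probe read 6.67, 6.27 and 6.26 on the control arrays and 7.81, 7.74 and 7.68 on the antagomiR-138 arrays, a rise of 1.34 where the brightest gave 0.07. A dim MRPS12 probe, not above background on any control array, was at least 1.80-fold higher in antagomiR-138 (adjusted p = 0.00024), while both brighter probes, at 0.12 and 0.16, did not pass. The second MRPL21 probe gave -0.07 with overlapping groups (adjusted p = 0.380), and the average of both probes was -0.24 (adjusted p = 0.0093). The second MRPS27 probe gave -0.04 (adjusted p = 0.711), and the average was -0.15 and did not pass. The second MRPL30 probe gave -0.10 (adjusted p = 0.316) where the brightest rose by 0.26, and the average, at 0.08, did not pass. MRPL57 rose by 0.67 on its brightest probe, but its other probe gave 0.33 with overlapping groups (adjusted p = 0.381). That dimmer probe was above background on only 2 arrays of each group. The average of both MRPL57 probes was 0.50 and passed. The second MRPL42 probe fell by 0.36 (brightest 0.06, not past the test). For MRPL33 the dimmer probe fell by 0.49 without overlap (adjusted p = 0.00085). Its brightest probe, at -0.19, did not pass over all probes (adjusted p = 0.0531). Some probes of a gene are annotated to different transcripts, as for MRPL11, MRPL21 and MRPL33. Others that differed carry the same transcript annotation within the gene, as for MRPS21, MRPS33, MRPL30, MRPL42, MRPS27 and MRPL57. The probe sequences were not used, so which isoform each probe reads was not examined.

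**Figure D3:**
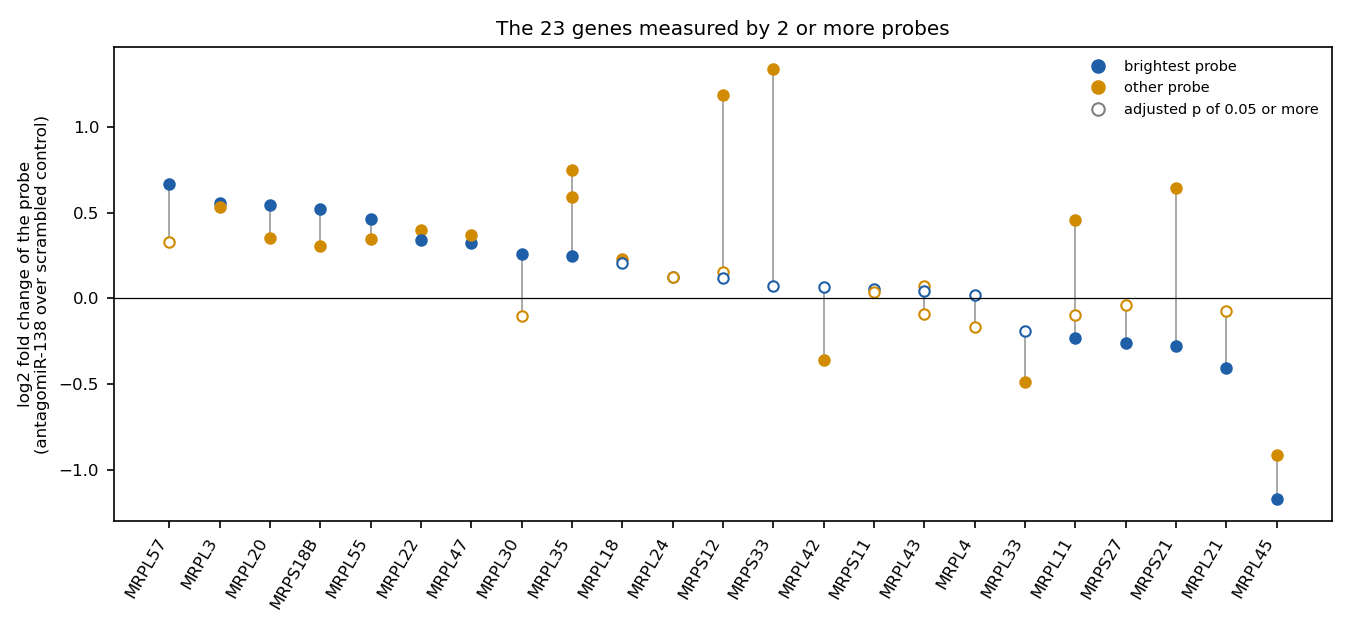
Log2 fold change of each probe (y axis) for the 23 mitochondrial ribosomal protein genes with 2 or more entering probes (x axis), with lines joining the probes of a gene. Filled points have an adjusted p under 0.05 over all probes; the probes of MRPL3 and MRPL45 lie together, and those of MRPS12, MRPS33 and MRPS21 are widely apart.

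RefSeq lists pseudogenes for 41 of the 76 genes, and whether probes also read these was not examined. Of the probes left out, that for the pseudogene MRPL42P5 rose by 0.49 (adjusted p = 0.0019), and those for MRPS31P5 did not enter. The antisense transcript MRPL20-AS1 read 9.86, 10.06 and 9.95 on the control arrays and 9.65, 9.501 and 9.59 on the antagomiR-138 arrays. It fell by 0.38 (adjusted p = 0.0071), while MRPL20 itself rose, and cross-hybridization between the strands was not examined. The antisense MRPL23-AS1 was not detected well enough to enter.

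The wider machinery of mitochondrial gene expression held both rises and falls, in shares to be read against the 30.9% and 29.1% of all genes. Of 5 measured genes listed as mitoribosome proteins with other symbols, KGD4 among them, 2 rose and 2 fell (median -0.06). GADD45GIP1 (also known as MRPL59) and DAP3, a GTP-binding small subunit protein, rose by 0.42 and 0.36, and CHCHD1 fell by 0.53. KGD4 (formerly MRPS36) fell by 0.20, and whether its protein belongs to the mitochondrial ribosome was not examined. PTCD3 was at -0.06 and did not pass. Of 27 measured assembly and rRNA modification factors 11 rose and 7 fell, with a median of 0.15. MRM1, a methyltransferase of the large rRNA, was at least 1.47-fold higher (not above background on the control arrays, adjusted p = 0.00019), and the GTPase MTG1 rose by 0.87 (adjusted p = 0.0130), with 2 of 3 control arrays above background. GRSF1, an RNA-binding protein of the mitochondrial RNA granules, read 11.11, 11.04 and 11.04 on the control arrays and 10.01, 9.99 and 9.98 on the antagomiR-138 arrays, and fell by 1.07 (adjusted p = 1.0e-05). FASTKD2, another granule protein, fell by 0.37. Of 14 translation factors 5 rose and 5 fell (median 0.20). The initiation factor MTIF2 rose by 0.37 and the release factor MTRF1L by 0.59, although its dimmer probe gave 0.18 and did not pass. The elongation factor GFM1 fell by 0.87 and MTRF1 by 0.72.

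Larger single changes were found in the factors that transcribe and process mitochondrial RNA, of which 10 of 20 rose and 2 fell (median 0.21). HSD17B10, a subunit of mitochondrial RNase P, read 7.60, 7.71 and 7.88 on the control arrays and 10.25, 10.15 and 10.22 on the antagomiR-138 arrays. It rose by 2.48 (adjusted p = 3.2e-06), and its second probe by 2.33. PRORP, the nuclease subunit of the same enzyme, read 9.93, 10.08 and 10.06 on the control arrays and 7.85, 7.81 and 7.92 on the antagomiR-138 arrays. It fell by 2.17 (adjusted p = 2.7e-06), so the 2 subunits moved in opposite directions. TFAM, which packages mitochondrial DNA and takes part in starting its transcription, fell by 1.77 (adjusted p = 7.9e-06). Its partner TFB2M rose by 0.85 (adjusted p = 7.6e-05). Of 18 mitochondrial aminoacyl-tRNA synthetases, 7 rose and 5 fell (median 0.09), from NARS2 at 0.54 and VARS2 at 0.37 to SARS2 at -0.67 and LARS2 at -0.72. Among 13 regulators of nuclear-encoded mitochondrial genes 4 rose and 3 fell (median 0.00), MYC by 0.56 and its partner MAX by 0.69 upwards and GABPA and SP1 by 0.65 and 0.55 downwards.

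The partners of the mitochondrial ribosome in the inner membrane and its cytosolic counterpart serve as comparisons. Of 70 measured respiratory chain and ATP synthase genes 39 rose and 7 fell, with a median of 0.20. Of 73 cytosolic ribosomal protein genes 8 rose and 11 fell, 54 did not pass and the median was 0.02. The values are counts and medians, and a difference between the lists was not tested.

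**Figure D4:**
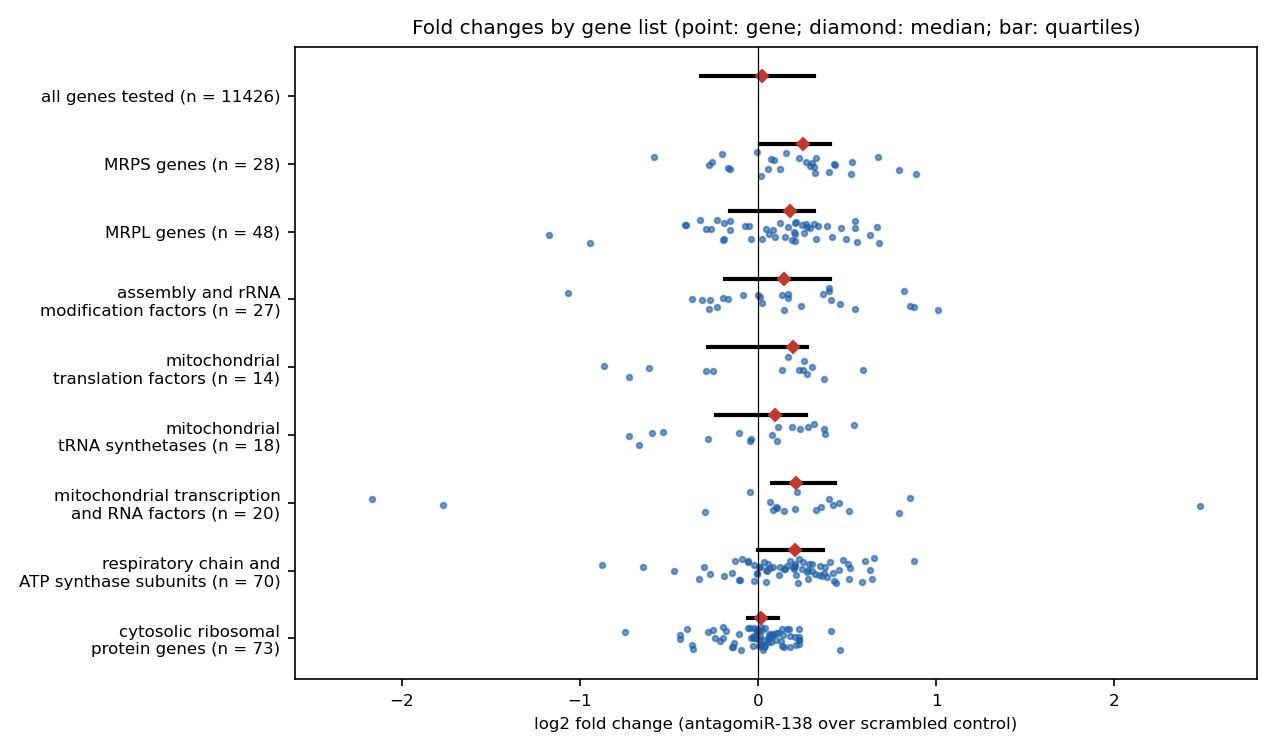
Log2 fold change (antagomiR-138 over scrambled control, x axis) of each gene in 8 lists and of all 11426 genes tested (y axis, with the number of genes). Points are genes, diamonds medians and bars quartiles; the medians of the MRPS and MRPL genes are 0.25 and 0.18, that of all genes 0.02 and that of the cytosolic ribosomal protein genes 0.02.

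Promoters of nuclear-encoded mitochondrial genes are known for short sites of YY1, GABP (an ETS factor) and NRF1 close to the start. RefSeq promoters (GRCh38.p14, 250 bases before to 50 after the gene start) matched 68 of the 76 genes. The YY1 letters AAGATGGCG were found, on either strand, in 13 of them (19.1%), against 1.85% of all 27305 promoters and 3.96% of the 9222 promoters of genes tested. Of these 13 genes 10 rose, 1 fell and 2 did not pass, with a median log2 fold change of 0.34, and the median of the other members with a promoter was 0.12. Over all tested genes with the letters the median was 0.09 (37.5% higher, 23.3% lower), and 0.02 without. In 10 of the 13 the match starts 6 to 35 bases after the gene start. YY1 itself was at -0.15 (adjusted p = 0.168). Windows of 30 bases around the match (in capitals, on the gene's strand) are shown for the 4 largest rises that hold it and for MRPS10, the 1 gene with it that fell.
MRPS24: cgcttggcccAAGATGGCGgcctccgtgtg
MRPL52: acccagattcAAGATGGCGacttcctgctt
MRPL32: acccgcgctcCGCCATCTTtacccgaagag
MRPL36: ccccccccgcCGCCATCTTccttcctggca
MRPS10: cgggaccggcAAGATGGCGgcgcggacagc
The windows lie at chr7:43869479-43869508, minus strand (MRPS24), chr14:22829813-22829842, plus strand (MRPL52), chr7:42932143-42932172, plus strand (MRPL32), chr5:1799854-1799883, minus strand (MRPL36) and chr6:42217833-42217862, minus strand (MRPS10). In MRPL32 and MRPL36 the letters stand in reverse complement.

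The ETS letters CCGGAAGT were found in 10 members (14.7%, against 4.44% of all promoters and 8.98% of those of genes tested), 6 of which rose and 2 fell (median 0.31, and 0.16 for the other members). Of all tested genes with the ETS letters 33.9% were higher and 27.4% lower. The NRF1 letters GCGCANGCG were found in 13 (19.1%, against 8.05% and 15.2%), 6 of which rose and 1, MRPL45, fell. Here the order of the medians was turned (0.17 with the letters, 0.20 without), and of all tested genes with them 31.6% were higher and 27.8% lower. The E-box CACGTG was found in 6 (8.82%, against 7.43% and 10.3%; medians 0.24 with and 0.18 without) and CCAAT in 19 (27.9%, against 35.7% and 37.4%; medians 0.17 and 0.20). Both strands were searched throughout. For the 2 genes with the strongest falls 1 match each is shown in the same way, ETS for MRPL53 and NRF1 for MRPL45, which also holds an E-box outside this window.
MRPL53: gcagccggcggCCGGAAGTctatcccgcag
MRPL45: ttgtctccctGCGCACGCGcggccgtactc
They lie at chr2:74472734-74472763, minus strand (MRPL53) and chr17:38296969-38296998, plus strand (MRPL45). A match is a run of letters and not a measured binding site.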

How the data were processed

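Total RNA of the 6 cell samples was hybridized as cRNA on Illumina bead arrays. The authors deposited probe intensity on a linear scale, background-subtracted and not normalized between arrays, with a detection p-value for each value, and a second table of normalized intensity, used here as an alternative. The methods name Bead Studio and Partek, and the submitters' processing notes GenomeStudio 1.9.0. In R 4.3.3, limma 3.58.1 normalized the intensities with neqc (offset 16, log2). A probe entered if 3 or more arrays gave it a detection p below 0.05, as 20051 of 47322 did. A gene is its brightest entering probe. Genes were fitted with lmFit and eBayes over all 6 arrays, two-sided, without covariates, on 11426 genes (7331 at an unadjusted p under 0.05). The fit was tested on simulated data in which, unlike here, few genes changed, and the normalization was not part of that test. Where a group was not above background, a fold is a bound against the higher of the lowest detected signal and the probe's own signal, per array. The number of arrays limits the precision. Groups come from the labels. Genes were named by probe ID from the platform annotation, updated through RefSeq. The methods name another Illumina array design than that annotation covers. The 10 largest rises and falls without overlap are given in full, and the 2 largest called rises and falls of each pathway list. The members and lists were chosen with earlier results of these data known. The alternatives were other background correction, scaling, filters, probe summaries, tests, a replicate block and leaving out each array.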

Additional observations from a re-analysis of the deposited data

How the results depend on the processing

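Of the 52 genes called, 31 were called under all 16 other settings that adjust p (26 higher and 5 lower, the latter MRPL45, MRPL53, MRPS28, MRPL21 and MRPL48), and 50 kept their sign in all of them. The 2 exceptions were MRPL11 and MRPS21, at 0.042 and 0.18 when the probes of a gene were averaged. Among the smaller falls, MRPL58, MRPS10, MRPL41 and MRPS26 kept their calls in 7, 8, 8 and 11 of the 16 settings. Among the smaller rises, MRPL51, MRPL49 and MRPS6 kept theirs in 8 each. For the 20 genes given in full, 308 of 340 values under other settings kept direction and side of the threshold, 30 lost the call (MRPL1, MRPL11, MRPL19, MRPS21 and MRPS27) and 2 reversed. Besides the 16 settings, these values include the methods' t-test judged at an unadjusted p under 0.05. At an adjusted p under 0.01, 22 genes were higher and 5 lower (MRPS 9 and 1, MRPL 13 and 4). The share of all genes at this threshold is not given here, so these counts show no difference from other genes. At 1.5-fold, 6 were higher and 2 lower (MRPS 3 and 0, MRPL 3 and 2), of 2873 genes in all. The falls were fewer with median centring (6, with 1 MRPS and 5 MRPL) and with no detection filter (10, with 6 MRPL). They were also fewer with the methods' t-test after Benjamini-Hochberg (9, with 3 MRPS and 6 MRPL), and for MRPS with averaged probes (3). There were 17 with an offset of 50, 17 with detection p under 0.01 on all 6 arrays and 18 with a trend and robust prior, against 16. Of all genes, 26.96% were lower with median centring, 15.96% with no detection filter and 26.28% with that t-test, against 29.12%. The drop without the detection filter was thus shared by all genes tested. The same-numbered arrays deviated together with correlations of 0.00, 0.02 and 0.05, so the numbers do not pair them. With the replicate block 33 genes were higher and 9 lower (2 MRPS and 7 MRPL), and of all genes 29.4% and 28.3%. Leaving out 1 array gave 29 to 35 genes higher and 7 to 12 lower (MRPS 12 to 15 and 1 to 3, MRPL 16 to 21 and 5 to 10), 6219 to 6403 of all genes and a median of 0.17 to 0.19. The median was 0.19 with an offset of 50, 0.20 with averaged probes and 0.23 with median centring. With 3 arrays per group, changes near the within-group SD (median 0.08) are not resolved.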
